A study of Mus musculus with 10 samples.

Results

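Open chromatin was followed around 10 imprinted genes, Igf2, H19, Igf2r, Grb10, Cdkn1c, Plagl1, Peg3, Mest, Peg10 and Snrpn, while mouse fibroblasts were reprogrammed towards pluripotency. The members are all peaks from 20 kb before to 20 kb after each gene (coordinates of mm10, gene positions from the RefSeq table of GRCm38.p6). Peaks of the 10 libraries that overlapped or touched were merged into 1 element, which gave 113 elements at the 10 genes among 208827 in the whole series. Accessibility was measured in 2 libraries at each of 5 stages by ATAC-seq, which uses a transposase to insert adapters where chromatin is accessible. All libraries are labelled C57BL/6 x 129. The fibroblasts (MEF) came from a mouse with a polycistronic OKSM cassette of reprogramming factors in the Col1a1 locus and the transactivator M2rtTA in the Rosa26 locus, and were collected in medium without doxycycline. Cells of the same genotype were collected on day 3 (DAY3, unsorted) and on day 6 and day 9 (DAY6 and DAY9, labelled as sorted for SSEA+) in ESC medium with 1 ug/ml doxycycline and 50 ug/ml ascorbic acid. Unsorted V6.5 cells (ESC), a mouse embryonic stem cell line, were grown in ESC medium on irradiated feeder cells, and their genotype label names no cassette. Sorting therefore coincides with DAY6 and DAY9, and the absence of the cassette with ESC, so these cannot be told apart from stage. Nothing in the labels says whether the 2 libraries of a stage came from separate cultures or animals, so p-values measure only the spread between libraries, which may be technical.

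An imprinted gene is read mainly from the copy inherited from 1 parent. The choice is set by an imprinting control region, a stretch whose DNA methylation differs between the egg and the sperm and is kept on that parental copy through development. On the unmethylated copy such a region can be open and bind proteins, such as CTCF upstream of H19, and several of the genes control growth before birth. The peak lists hold no allele information, so a peak can come from either parental copy or from both.

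Library depth is not part of the lists. The lists held 45497 (DAY3 replicate 2) to 88980 (ESC replicate 2) peaks, and the commonest expected pileup, a measure of relative depth recovered from the deposited folds and p-values, ran from 2.33 (DAY6 replicate 2) to 8.32 (MEF replicate 2). The DAY3 libraries differed from each other by 1.33 times counting noise and the DAY9 libraries by 1.42 times, against 3.61 to 8.11 times within the other stages and 3.96 to 31.5 times between stages. Each of these pairs was therefore counted as 1 sample. Of the 6 pluripotency markers with an annotated start in the promoter table, 2 had peaks within 1 kb of it in each library of MEF and of DAY3, 5 at DAY6, and all 6 at DAY9 and in ESC. For the 5 fibroblast markers with a start the numbers were 5 (MEF), 4 (DAY3), 4 (DAY6), 3 (DAY9) and 4 (ESC). In the windows of all 8 fibroblast markers 28 of 104 elements were lost in ESC against MEF (26.9%, against 13.8% of all elements). In the same windows 9 were gained (8.65%, against 19.8%). Of the 28 lost, 6 lay at Col1a1, the locus that holds the cassette in MEF. The ESC were grown on feeder cells, and the part of feeder DNA in the ESC peaks was not tested. Of the 2 blood markers with a start, 0 had peaks there at any stage in both libraries.

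The promoters of the members ranged from open in every library to open in none, and a few are printed because they show this range. RefSeq promoters (GRCm38.p6, 250 bases before to 50 after the start) were matched for 7 of the 10 genes, with 16 promoters in all. Those of H19, Cdkn1c and Peg10 were not matched. Each sequence is written 5′ to 3′ on the gene's strand, and capitals mark CpG, the dinucleotide that carries DNA methylation. The first 3 overlapped a peak in all 10 libraries, the Snrpn promoter in 5 libraries and the last in none.
Grb10, minus strand, chr11:12037371-12037670: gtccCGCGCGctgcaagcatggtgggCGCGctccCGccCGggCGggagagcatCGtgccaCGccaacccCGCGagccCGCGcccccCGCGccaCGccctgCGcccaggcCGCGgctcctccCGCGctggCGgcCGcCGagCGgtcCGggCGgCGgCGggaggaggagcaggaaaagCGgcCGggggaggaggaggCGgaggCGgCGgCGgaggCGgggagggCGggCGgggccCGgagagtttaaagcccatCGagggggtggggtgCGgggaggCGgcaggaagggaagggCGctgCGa
Igf2r, minus strand, chr17:12769657-12769956: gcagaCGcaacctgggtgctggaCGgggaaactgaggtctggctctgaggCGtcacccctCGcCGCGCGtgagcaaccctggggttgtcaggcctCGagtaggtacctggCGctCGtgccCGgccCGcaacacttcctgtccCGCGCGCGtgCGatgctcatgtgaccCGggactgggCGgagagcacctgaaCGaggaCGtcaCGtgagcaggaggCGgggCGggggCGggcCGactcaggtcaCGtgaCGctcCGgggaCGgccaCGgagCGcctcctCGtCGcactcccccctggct
Plagl1, plus strand, chr10:13090582-13090881: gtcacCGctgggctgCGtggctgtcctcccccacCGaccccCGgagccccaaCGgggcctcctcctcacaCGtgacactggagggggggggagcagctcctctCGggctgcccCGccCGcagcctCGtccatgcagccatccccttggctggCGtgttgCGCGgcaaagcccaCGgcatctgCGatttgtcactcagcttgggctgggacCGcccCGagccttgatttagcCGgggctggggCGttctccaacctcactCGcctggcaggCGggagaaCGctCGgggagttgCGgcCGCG
Snrpn, minus strand, chr7:60005150-60005449: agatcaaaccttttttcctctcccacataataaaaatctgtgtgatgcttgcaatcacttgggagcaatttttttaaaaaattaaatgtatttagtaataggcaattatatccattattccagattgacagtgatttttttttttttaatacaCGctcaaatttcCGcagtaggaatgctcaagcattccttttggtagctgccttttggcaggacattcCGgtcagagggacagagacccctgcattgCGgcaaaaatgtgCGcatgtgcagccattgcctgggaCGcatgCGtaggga
Igf2, most upstream start, minus strand, chr7:142666767-142667066: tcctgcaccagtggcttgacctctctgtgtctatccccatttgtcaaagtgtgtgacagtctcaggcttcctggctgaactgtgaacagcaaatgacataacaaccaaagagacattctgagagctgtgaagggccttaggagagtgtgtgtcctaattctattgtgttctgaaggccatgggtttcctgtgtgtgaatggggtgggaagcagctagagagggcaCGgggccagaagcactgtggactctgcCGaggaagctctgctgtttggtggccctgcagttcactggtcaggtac

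These promoters held 45 CpG sites in Grb10, 34 in Igf2r, 26 in Plagl1, 7 in Snrpn and 2 in Igf2. Among the 16 member promoters, the 3 with a peak in all 10 libraries held 26 to 45 CpG sites and the 7 with no peak held 2 to 14. Over all 32851 promoters in the table, 34.0% had a peak in every library, with a median of 23 CpG sites, and 44.5% had none, with a median of 3. The members thus followed the order seen over all promoters. The letters TGCCGC are the hexamer bound by the imprint-keeping protein ZFP57 when methylated. They were found on either strand in 6 of the 16 member promoters, against 11.6% of all promoters. These 6 lay in 5 of the 7 genes (Grb10, Igf2, Mest, Plagl1 and Snrpn), and no share of all genes was computed. The 2 Mest promoters among these 6 overlap almost wholly. Over all promoters the share with TGCCGC was 3.33% where no library had a peak and 12.3% where 1 to 9 libraries did. It was higher still where all 10 did. Whether the members differ from promoters alike in openness or CpG content was not tested. A KLF4-like motif, GGGNGTGG, was found in 3 of 16 member promoters, in Grb10, Igf2 and Peg3, against 17.6% of all. A core motif of CTCF and the YY1 motif GCCATNTT were found in 0 of the 16, against 0.0365% and 6.05% of all promoters. A match of letters is a description and no binding site.

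As a group, the 10 loci changed about as often as the rest of the genome, and they differed in which way they changed. A gained element had a peak in both libraries of the later stage and in neither of the earlier stage, and a lost element the reverse. In ESC against MEF, 16 of the 92 member elements with a peak in any of those 4 libraries were gained (17.4%, against 19.8% of all elements) and 12 were lost (13%, against 13.8%). Peaks in every library were found at 12 of the 113 elements (10.6%, against 7.35% of all elements), in 7 of the 10 loci: 3 each at Grb10 and Peg3, 2 at Peg10, and 1 each at Igf2r, Cdkn1c, Plagl1 and Snrpn. Igf2, H19 and Mest had no such element. Peg10 element 3 joins peaks whose centres differ between MEF and ESC. Snrpn gained 5 elements and lost 0, Cdkn1c gained 3 and lost 0, and Mest gained 1 and lost 0. Of the Cdkn1c gains 1 rests on ESC peaks outside the 20 kb window, and counting only peaks that reach into the windows gave 2 gains at Cdkn1c and 15 in all. Igf2r gained 0 and lost 5, and Igf2 and H19 gained 0 and lost 1 each. Grb10 gained 3 and lost 3, Plagl1 gained 3 and lost 1, Peg10 gained 1 and lost 1, and Peg3 gained and lost 0. With 2 libraries against 2 the smallest two-sided exact p is 0.333, so these calls carry no p-value. Leaving out a library lets a call rest on 1 library of that stage, and the counts then depended on which library was left out. The lost count was 24 without MEF replicate 2 and 15 without MEF replicate 1. The gained count was 31 without ESC replicate 1 and 22 without ESC replicate 2.

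**Figure D1:**
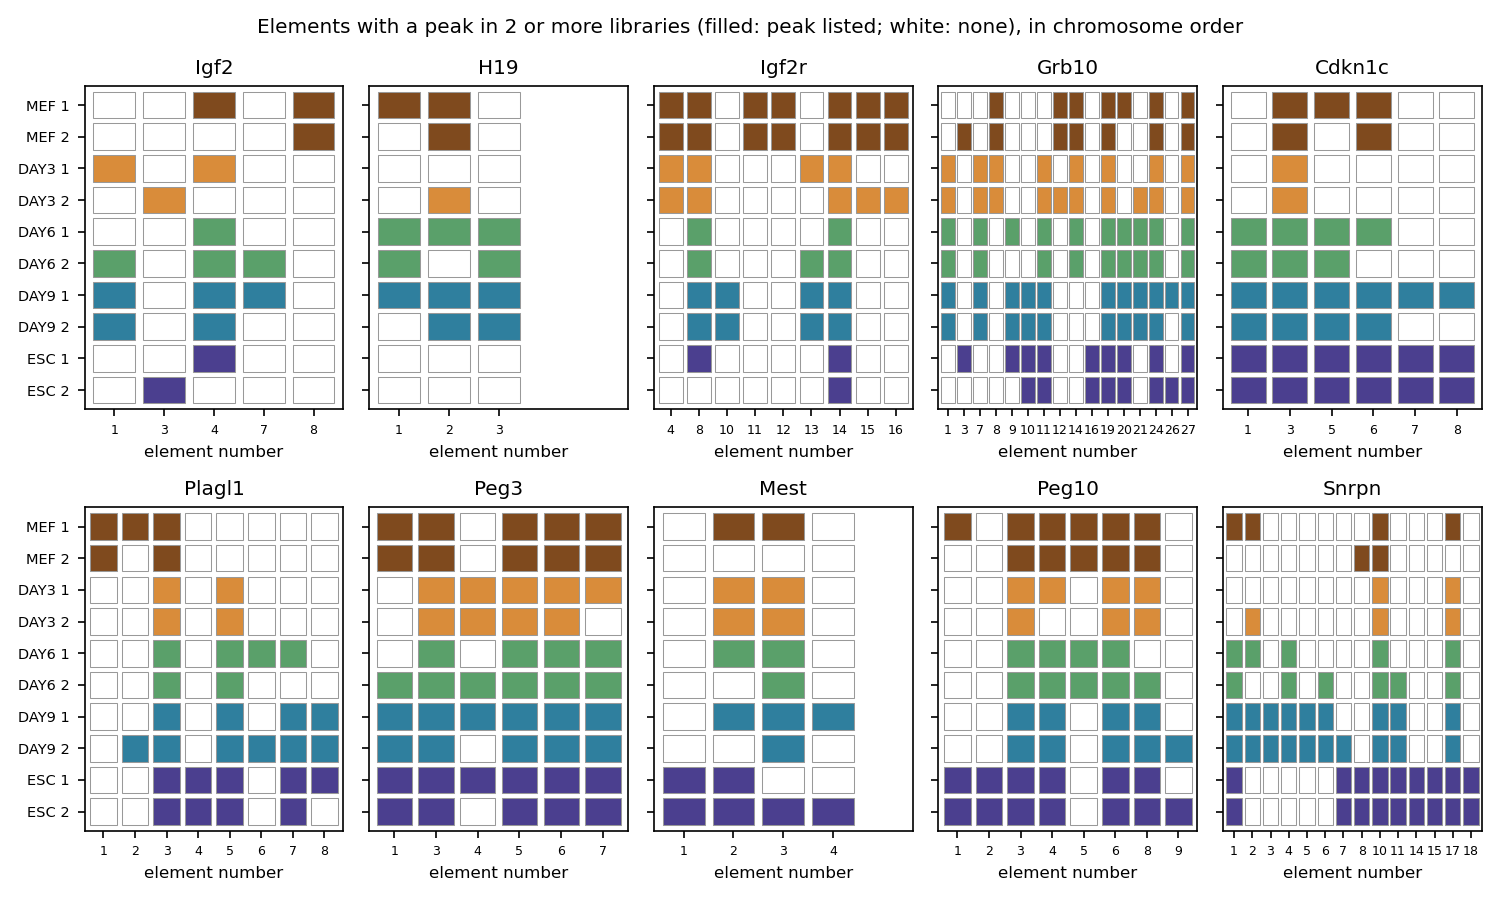
Elements with a peak in 2 or more libraries at each of the 10 genes (columns, numbered in chromosome order) across the 10 libraries (rows); a filled cell is a listed peak and a white cell is none. Peg3 shows 3 columns filled in every library, H19 has no filled cell in the 2 ESC rows, and at Snrpn elements 14, 15 and 18 are filled in the ESC rows alone.

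The number of peaks per library in each gene's window (the gene and 20 kb on either side) gave the same picture at coarser grain. Igf2r had 11 and 9 peaks (MEF), 4 and 5 (DAY3), 2 and 3 (DAY6), 5 and 4 (DAY9), and 3 and 1 (ESC). Both MEF libraries lay above every other library. Snrpn had 4 and 2 peaks in MEF, 2 and 3 (DAY3), 5 and 7 (DAY6), 10 and 11 (DAY9), and 10 and 14 (ESC). The DAY9 and ESC libraries lay above all others there. Cdkn1c had 3 and 2 peaks in MEF, 1 and 1 (DAY3), 4 and 3 (DAY6), 7 and 5 (DAY9), and 5 and 5 (ESC), so that DAY9 and ESC again lay above the other stages. Whether peak number differed between stages was tested per gene, over all 46087 genes with a peak in their window, with the between-stage part of the sum of squares as the statistic of an exact permutation test (8 samples, 420 arrangements, smallest possible p 0.00238). This share was 95.0% at Cdkn1c (exact permutation p = 0.0262), 94.7% at Igf2r (p = 0.0571) and 90.7% at Snrpn (p = 0.0714). After Benjamini-Hochberg adjustment over all genes, the permutation test called 0 of the 10 members (adjusted p 0.385 to 1) and 0 of all genes (smallest adjusted p 0.341). With this smallest possible p and 46087 genes, a call needs a great many genes at that p at once. The 0 calls therefore do not show that peak numbers were alike between stages. At an unadjusted p of 0.05 the permutation test reached 1 of the 10 members, Cdkn1c, and 5479 of all genes (11.9%). Cdkn1c was not reached with equal list lengths (share 69.1%), the stricter q (87.4%) or 10 kb flanks (78.8%), nor without MEF replicate 2, DAY6 replicate 1, DAY9 replicate 1 or either ESC library. Igf2r was reached instead with equal list lengths (4961 of 42983 genes in all) and with the stricter q (5183 of 44590). Peak numbers per 10000 listed peaks reached Igf2r, Grb10 and Cdkn1c, with 7969 of all genes. With all 10 libraries counted as samples, Igf2r, Cdkn1c and Snrpn were reached, with 11629 of all genes. A replicate block reached Cdkn1c and Snrpn, with 6256 of all genes.

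**Figure D2:**
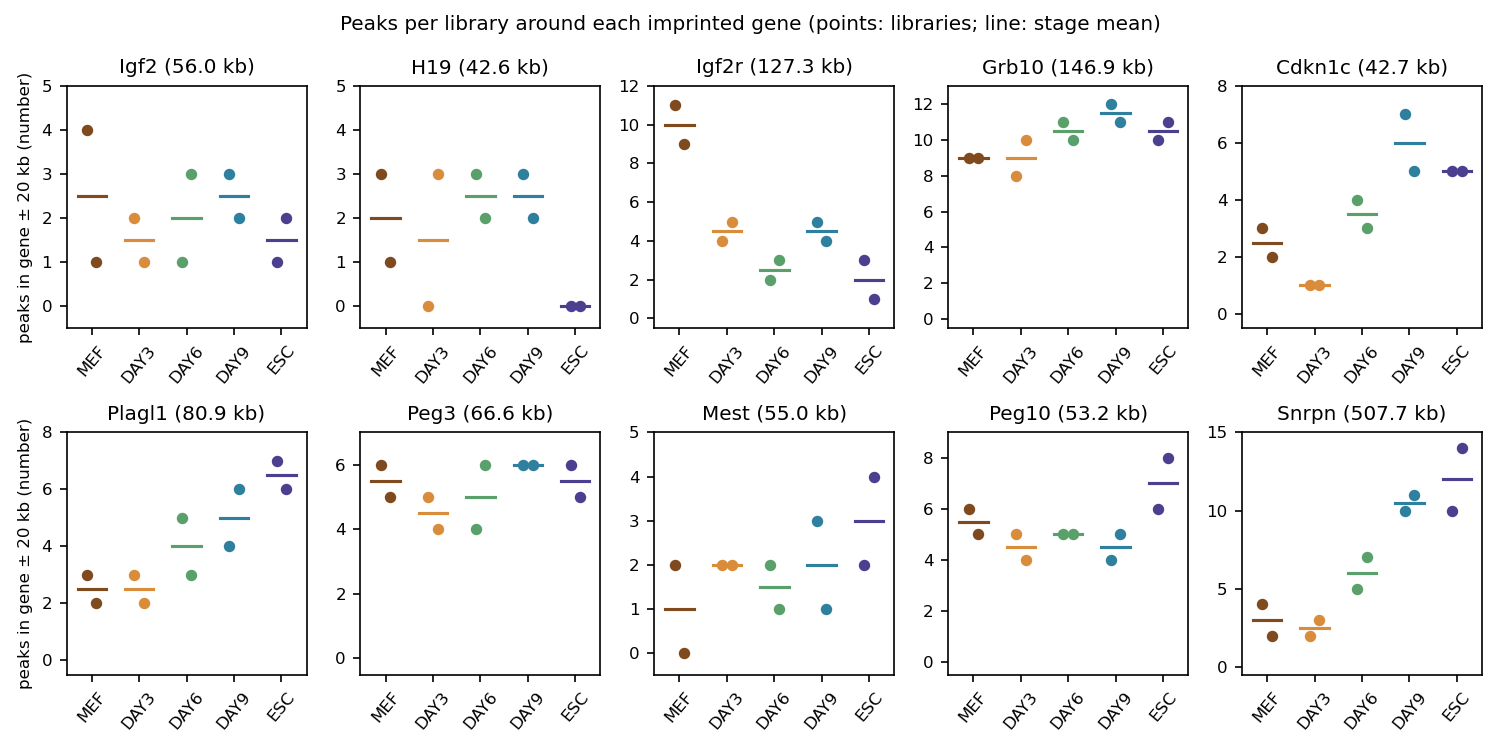
Number of peaks in the gene and 20 kb on either side (vertical axis) in each library (points) at the 5 stages, with the stage mean as a line; titles give the width of the window. Igf2r is highest in MEF (11 and 9 peaks), Snrpn in ESC (10 and 14), and H19 has 0 peaks in both ESC libraries.

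Igf2, the gene of a fetal growth factor read from the paternal copy, lies on chromosome 7 (142650768 to 142666816). It had 0 to 2 elements open in both libraries at a stage. Of its 8 elements, 5 were open (both libraries) at no stage. Element 4 (chr7:142659097-142660057), inside the gene and 0.3 kb upstream of the start at 142658804, had a deposited fold of 4.56 in MEF replicate 1, 3.79 in DAY3 replicate 1, 4.56 and 6.06 in DAY6, 6.13 and 4.46 in DAY9, and 4.58 in ESC replicate 1. It was open in both libraries at DAY6 and DAY9, and at MEF, DAY3 and ESC in 1 library each. Element 3 (chr7:142658725-142659009), beside it and across that start, was listed in DAY3 replicate 2 (3.10) and ESC replicate 2 (2.76), where element 4 was not. Counting both, 9 of the 10 libraries had a peak within 1 kb of the start, all but MEF replicate 2. The fold is the authors' ratio of a peak's summit to its local background in its own list and describes peaks only. The 1 lost element of Igf2, element 8 (chr7:142675698-142676097), 8.9 kb upstream of the most upstream start, had a fold of 3.62 and 3.36 in the MEF libraries and no peak in the other 8. With equal list lengths or the stricter q of 5 on the −log10 scale, 0 Igf2 elements were called lost. Element 1 (chr7:142646595-142647277), beyond the low-coordinate end of the gene, had peaks in DAY3 replicate 1 (3.87), DAY6 replicate 2 (4.51) and both DAY9 libraries (3.12 and 3.46), and none in MEF or ESC.

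H19, whose maternally read RNA is not translated, had no peak in either ESC library. The gene is known to be read from its high-coordinate end (chromosome 7, 142575530 to 142578146), and its control region is known to lie upstream of it. Element 2 (chr7:142580185-142582268), which begins 2.0 kb beyond that end, had a fold of 4.19 and 2.68 in MEF, 3.42 in DAY3 replicate 2, 4.58 in DAY6 replicate 1, and 4.78 and 7.35 in DAY9. No peak was listed there in DAY3 replicate 1, DAY6 replicate 2 and both ESC libraries. In MEF this element was among the lower peaks: 61.9% of the peaks of replicate 1 and 91.6% of those of replicate 2 scored at least as high. That share was 66.4% in DAY3 replicate 2 and 56.2% in DAY6 replicate 1, and 45.4% and 30.4% in the DAY9 libraries. Element 1 (chr7:142578059-142578546), across the high-coordinate end, had peaks in MEF replicate 1 (4.60), both DAY6 libraries (3.14 and 5.56) and DAY9 replicate 1 (3.63). Element 3 (chr7:142595175-142595788), 17.0 kb beyond that end, was open only in the sorted stages, with 5.61 and 6.31 in DAY6 and 8.77 and 5.37 in DAY9. The loss of element 2 was not called when each list was cut to 45497 peaks, when a −log10 q of 5 was required or when peaks had to cover 50% of the element. MEF replicate 2 then had 0 H19 elements, and the 2 ESC libraries had 0 in each of these settings.

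Igf2r, the receptor that takes up IGF2 for breakdown and is read from the maternal copy, lost elements inside the gene and kept its promoter. Element 14 (chr17:12769095-12770148), across the annotated start of the promoter printed above, had a peak in all 10 libraries, with folds of 5.89 and 3.22 (MEF), 3.43 and 4.05 (DAY3), 6.06 and 6.73 (DAY6), 7.01 and 8.07 (DAY9), and 10.26 and 5.42 (ESC). Element 8 (chr17:12740910-12741832), inside the gene and across the low-coordinate end of Airn, the paternally read antisense RNA of this locus, had a peak in 9 libraries and none in ESC replicate 2. Its folds ran from 4.07 (DAY6 replicate 2) to 7.39 (DAY3 replicate 1). Of the 5 lost elements, 3 lay inside Igf2r and 2 upstream of its start. Element 16 (chr17:12782762-12783613), 13.1 kb upstream of the start, had a fold of 11.10 and 8.91 in MEF and 3.67 in DAY3 replicate 2. Element 4 (chr17:12724273-12725805), 43.9 kb into the gene, had 5.65 and 3.50 in MEF and 3.01 and 3.99 in DAY3. Neither had a peak from DAY6 on. Element 15, 11.4 kb upstream, had 4.05 and 4.28 in MEF and 3.83 in DAY3 replicate 2. Elements 11 and 12, 18.1 and 14.7 kb into the gene, were listed in MEF alone (3.90 and 2.58, and 3.10 and 3.14). Elements 10 and 13 had no peak in MEF or ESC and were open at DAY9 (2.76 and 3.70, and 3.96 and 3.34). The Igf2r locus thus went from 7 open elements in MEF to 1 in ESC, the promoter. With equal list lengths, the stricter q and 50% overlap, Igf2r lost 3, 3 and 6 elements and gained 0.

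Grb10, an adaptor protein that dampens insulin and IGF receptor signalling, had the most elements, 28, with turnover between neighbours. Elements 27 and 24 had a peak in every library. Element 27 (chr11:12036955-12038124) covers the printed promoter and had folds of 3.48 (MEF replicate 2) to 7.74 (DAY9 replicate 2), and element 24 (chr11:12025423-12026789), 1.2 kb downstream of the start at 12027971, had 4.13 (MEF replicate 2) to 10.65 (MEF replicate 1). Element 19 (chr11:11973203-11973835) was the third, with 2.95 to 10.42.

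Between 78.5 and 92.5 kb downstream of the Grb10 start at 12027971, elements with opposite courses stood side by side. Element 8 (chr11:11939488-11940082) had a fold of 15.53 and 11.89 (MEF), then 2.70 and 2.74 (DAY3), and no peak from DAY6 on. In the DAY3 lists 99.6% of peaks scored at least as high, so it was among the weakest listed there. Element 11 (chr11:11948298-11949493) had no MEF peak, and 10.62 and 10.56 (DAY3), 15.24 and 18.03 (DAY6), 16.72 and 16.59 (DAY9), and 14.76 and 13.27 (ESC). In every list that held it, 5.91% of the peaks or fewer scored as high. Element 7 (chr11:11934795-11935468) was open at DAY3 (7.18 and 7.89), DAY6 (8.86 and 8.80) and DAY9 (6.31 and 5.74) and in no MEF or ESC library. Element 10 (chr11:11942448-11943104) was open from DAY9 (2.83 and 3.93) and had 9.80 and 10.47 (ESC).

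Element 1 of Grb10 (chr11:11913541-11914861), outside the gene on the low-coordinate side, was listed in the same libraries as element 7, with 3.49 and 4.31 (DAY3), 7.14 and 11.06 (DAY6), 6.60 and 8.94 (DAY9) and no peak in MEF or ESC. Element 21 (chr11:11997853-11998621) had 3.03 in DAY3 replicate 2, 5.25 and 7.51 at DAY6 and 4.44 and 5.97 at DAY9. Of the other lost elements, element 12 had 7.10 and 3.65 in MEF and 2.82 in DAY3 replicate 2, and element 14 was open in MEF (6.37 and 3.31), DAY3 (5.24 and 4.96) and DAY6 (3.96 and 4.51). The other gained element, element 16, was listed in ESC alone (4.15 and 4.08). Over the series, 9.61% of all elements were open at an intermediate stage and had no MEF or ESC peak, and 11 of the 113 member elements (9.73%) did, 4 at Snrpn, 3 at Grb10, 2 at Igf2r and 1 each at Igf2 and H19.

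**Figure D3:**
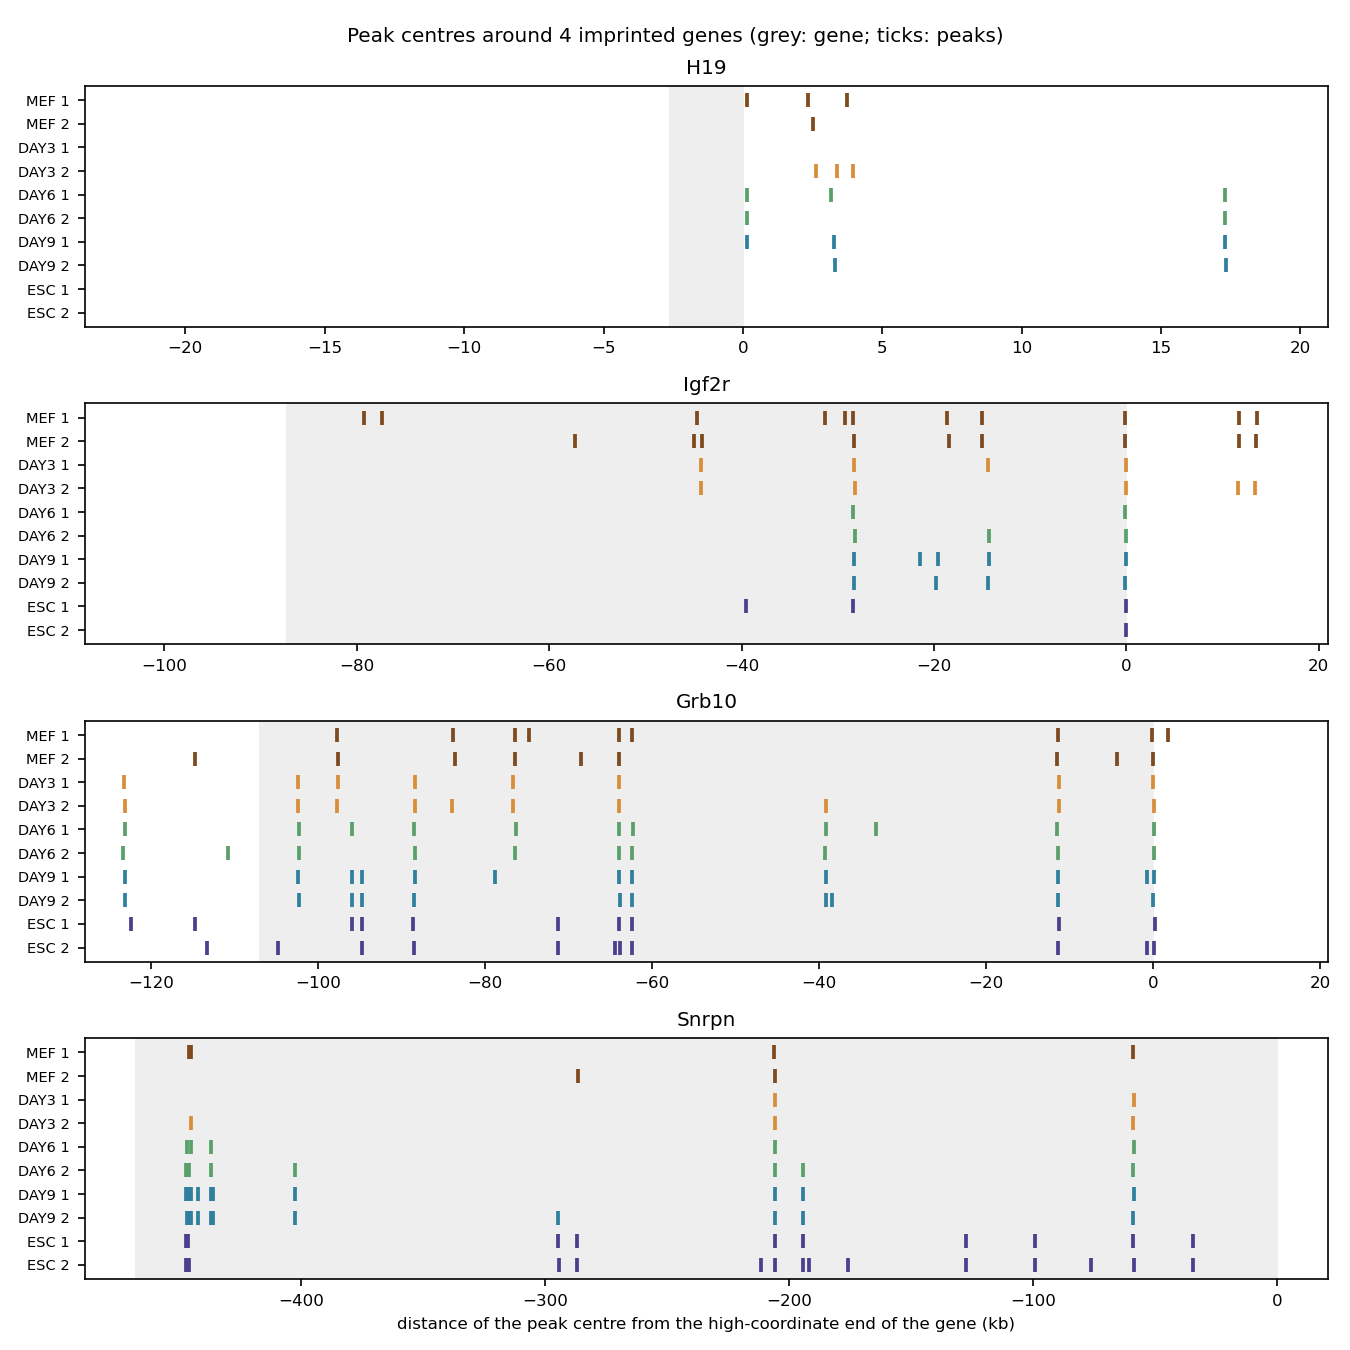
Peak centres (ticks) in each library against their distance in kb from the high-coordinate end of H19, Igf2r, Grb10 and Snrpn, with the gene in grey. Most MEF ticks of Igf2r inside and beyond the gene have no ESC counterpart, those at 0 kb are kept in both ESC libraries and those of element 8 in ESC replicate 1. Snrpn shows added ESC ticks spread from -294.6 to -34.6 kb.

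Cdkn1c, which encodes a cyclin-dependent kinase inhibitor read from the maternal copy, kept the element at its high-coordinate end. The locus had 2 open elements in MEF, 1 in DAY3, 3 in DAY6, 4 in DAY9 and 6 in ESC. Counted by library, DAY6 replicate 2 and MEF replicate 1 each had 3 elements with a peak. Element 3 (chr7:143460458-143461722) had folds of 8.77 and 5.31 (MEF), 6.74 and 6.11 (DAY3), 8.24 and 9.01 (DAY6), 9.34 and 8.76 (DAY9), and 13.71 and 7.66 (ESC). At DAY3 it was the only element of the locus with a peak. Element 1 (chr7:143437276-143438679), at the edge of the window, was open in both libraries at DAY6 (6.74 and 6.58), DAY9 (6.15 and 5.14) and ESC (4.91 and 5.42) and in none before. The ESC peaks of this element lie just outside the window and entered only because they were merged with the DAY6 and DAY9 peaks. Elements 7 and 8, which overlap the neighbouring imprinted gene Slc22a18, had peaks in DAY9 replicate 1 (3.48 and 3.94) and in both ESC libraries (6.03 and 3.78, and 4.22 and 5.11). Element 6 (chr7:143469769-143470339) was open in MEF (7.34 and 2.57), had no peak in DAY3 and 1 in DAY6 replicate 1 (5.33), and was open again at DAY9 (3.16 and 3.70) and in ESC (5.06 and 3.26). With lists cut to equal length Cdkn1c gained 0 elements.

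Plagl1, a zinc finger transcription factor read from the paternal copy, kept its promoter and gained elements inside the gene. Element 3 (chr10:13090352-13091383), across the start printed above and shared with the imprinted RNA Hymai, had a peak in all 10 libraries, with folds of 3.11 (MEF replicate 2) to 12.18 (DAY6 replicate 2). Element 5 (chr10:13107709-13109249), 16.9 kb into the gene, had no MEF peak, and 6.23 and 5.46 (DAY3), 9.86 and 11.81 (DAY6), 12.07 and 12.53 (DAY9), and 14.88 and 10.89 (ESC). Every library from DAY3 on held it. Element 7 had 4.04 in DAY6 replicate 1 and was open at DAY9 (3.24 and 4.06) and in ESC (2.92 and 3.87), and element 4 (chr10:13102338-13102821) was listed in ESC alone (4.46 and 4.65). The 1 lost element, element 1 (chr10:13080206-13080652), 10.2 kb upstream, was listed in MEF alone (4.98 and 5.15). With equal list lengths Plagl1 gained 1 element.

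Peg3, a zinc finger protein gene read from the paternal copy, was the most constant locus by these calls, with 0 elements gained and 0 lost in ESC against MEF and 5 elements open in both libraries of both. Element 3 (chr7:6696127-6696855), outside the gene and inside its neighbour Zim1, had folds of 19.78 and 13.02 (MEF), 13.22 and 11.97 (DAY3), 15.51 and 14.34 (DAY6), 14.28 and 14.73 (DAY9), and 17.77 and 16.36 (ESC). At most 9.72% of the peaks of any list scored as high. Element 5 (chr7:6727233-6729155), 1.3 kb into the gene, had folds of 5.01 (DAY3 replicate 2) to 6.36 (MEF replicate 2), and element 6 beside it 2.38 (ESC replicate 2) to 3.38 (DAY6 replicate 2). Element 7, across the start of Peg3 and overlapping Usp29, was listed in 9 libraries (1.90 to 3.30) and missing in DAY3 replicate 2. Element 1, in Zim1, was open in MEF, had no peak in DAY3, had 1 in DAY6 replicate 2, and was open at DAY9 and in ESC. With equal list lengths 1 Peg3 element was called lost.

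**Figure D4:**
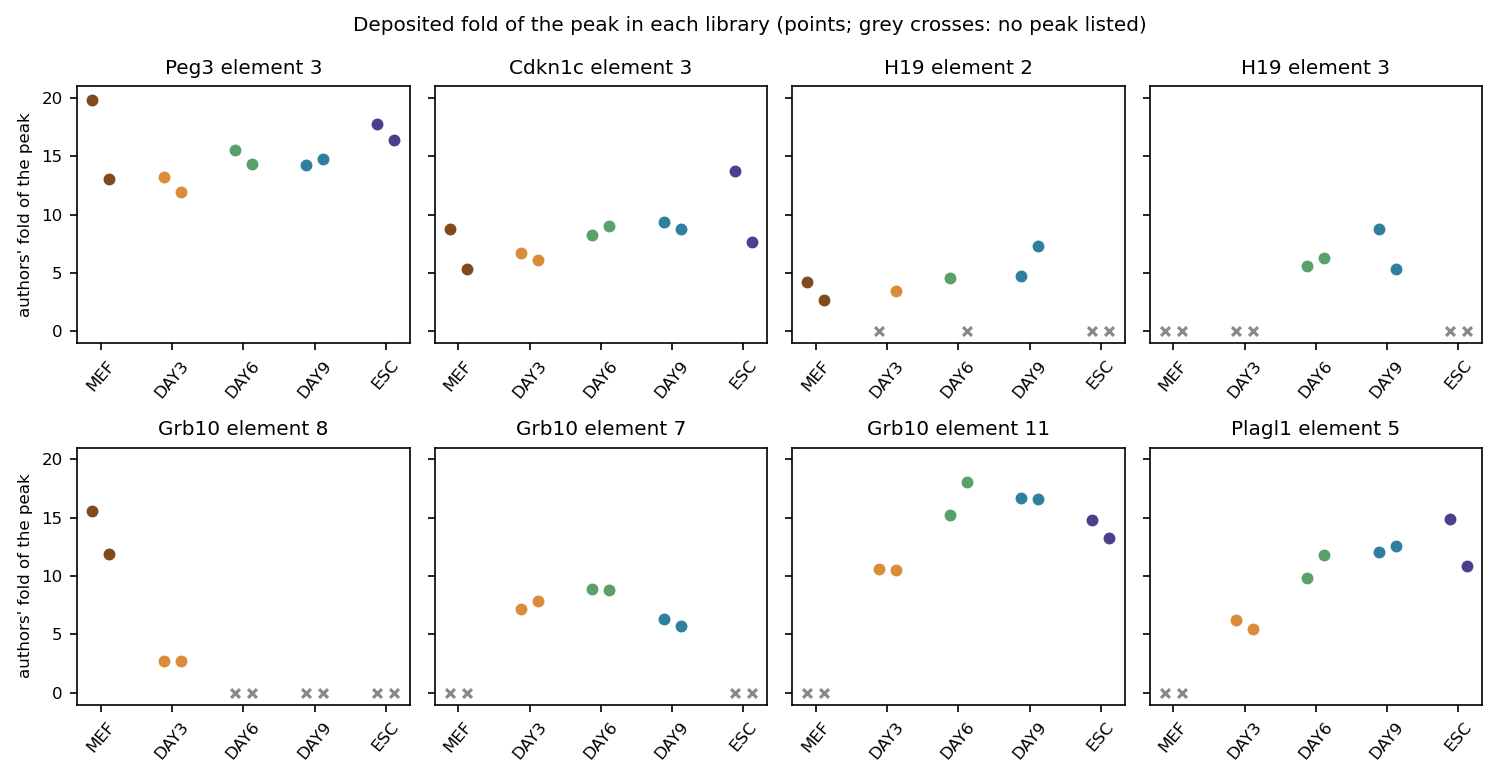
Deposited fold of the peak (vertical axis, linear) in each library at 8 elements; points are libraries and grey crosses mark libraries with no listed peak. Peg3 element 3 and Cdkn1c element 3 have a point in all 10 libraries, Grb10 element 8 in MEF and DAY3 alone, and Grb10 element 11 and Plagl1 element 5 in every library from DAY3 on.

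Mest, a paternally read gene of the hydrolase family, had no peak in MEF replicate 2 and at least 1 in every other library. Element 3 (chr6:30737560-30738535) covers the starts at 30738050 and 30738053 and had folds of 4.69 in MEF replicate 1, 3.22 and 2.96 (DAY3), 4.12 and 5.23 (DAY6), 6.53 and 6.23 (DAY9), and 4.34 in ESC replicate 2. Element 2 (chr6:30736829-30737484), 0.6 kb upstream, was open at DAY3 (4.27 and 3.83) and in ESC (3.79 and 3.08). It was also listed in replicate 1 of MEF (5.64), DAY6 (4.32) and DAY9 (2.62). Counting both, 9 of the 10 libraries had a peak within 1 kb of the start at 30738050, all but MEF replicate 2. Element 1 (chr6:30732566-30733231), 0.3 kb upstream of the other annotated start at 30733506, was listed in ESC alone (4.02 and 5.11). It was the 1 gained element of the locus, and with equal list lengths the gain was not called.

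Peg10, a gene derived from a retrotransposon and needed in the placenta, kept an element just inside its low-coordinate end and changed 1 in each direction. Element 6 (chr6:4748784-4749595), 1.5 kb inside, had a peak in every library (5.94 to 13.88). Element 3 (chr6:4739435-4740915), inside the neighbouring imprinted gene Sgce, also did (3.00 to 12.83), but it joins neighbouring peaks. From the high-coordinate end, its MEF peaks were centred at -19.95 and -19.86 kb. The centres were -20.63 and -20.65 kb in DAY9, and -20.54 and -20.44 kb in ESC. Both DAY3 libraries listed a peak at each place. With equal list lengths, the stricter q or 50% overlap, 1 Peg10 element had a peak in every library. Element 4, across the low-coordinate end and overlapping Sgce, was listed in 9 libraries (2.74 to 4.46) and missing in DAY3 replicate 2. Element 5 (chr6:4747780-4748464) had 3.92 and 4.15 in MEF, no peak in DAY3, 3.11 and 3.40 in DAY6, and none in DAY9 or ESC. Element 2 (chr6:4738615-4739174), in Sgce, was listed in ESC alone (10.39 and 6.50). With equal list lengths Peg10 gained 2 elements.

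Snrpn, which encodes a splicing protein and is read from the paternal copy, spans 467683 bp in the RefSeq table with 4 annotated starts, and its elements fell into separate groups. At the most downstream start (60005199), whose promoter is printed above, element 1 (chr7:60002781-60004779) was listed in MEF replicate 1 (3.85), in no DAY3 library, in both DAY6 (5.92 and 7.01), both DAY9 (9.63 and 9.14) and both ESC libraries (6.68 and 5.96). Element 2, which covers that start, was listed in MEF replicate 1 (4.53), DAY3 replicate 2 (3.19), DAY6 replicate 1 (3.20) and both DAY9 libraries (2.3 and 2.97) and in no ESC library. Upstream of it, elements 3, 4, 5 and 6 were open at DAY9 and had no MEF or ESC peak. Element 4 (chr7:60013160-60013805) had 4.94 and 5.41 in DAY6 and 4.80 and 6.33 in DAY9. Elements 3 and 5 were listed at DAY9 alone (3.45 and 2.31, and 3.24 and 2.99). Element 6, which covers the start at 60047978, had 3.61 in DAY6 replicate 2 and 5.64 and 3.58 at DAY9.

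Upstream of the start at 60140225, Snrpn gained elements in ESC. Elements 14, 15 and 18 were listed in the 2 ESC libraries alone, and element 15 (chr7:60350660-60351553), 98.6 kb downstream of the most upstream start, had folds of 10.48 and 10.37, against 3.57 and 5.42 at element 14 and 4.02 and 4.80 at element 18. Elements 7 and 11 were gained too, element 7 with 2.87 in DAY9 replicate 2 and 6.47 and 5.11 in ESC, and element 11 with 5.11 in DAY6 replicate 2, 5.52 and 3.58 at DAY9 and 16.25 and 5.57 in ESC. Element 10 (chr7:60243737-60244703) had a peak in every library, with 10.15 and 3.65 (MEF), 4.92 and 7.02 (DAY3), 10.67 and 13.43 (DAY6), 11.17 and 10.75 (DAY9), and 14.74 and 16.02 (ESC). All 18 Snrpn elements overlap the annotated span of the RNA Snhg14. With equal list lengths, the stricter q and 50% overlap, Snrpn gained 5, 6 and 7 elements and lost 0.

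By stage, the 10 loci held 30 open elements in MEF, 25 in DAY3, 32 in DAY6, 45 in DAY9 and 40 in ESC, where open means a peak in both libraries. Over the series 46089 elements were open in MEF and 58799 in ESC. Lists were shortest at DAY3 and longest in ESC, and the DAY3 and DAY9 pairs were the most alike. More peaks and a more alike pair both allow more open elements, and their part in these counts was not tested. From MEF to DAY3, 5 elements were gained, in Grb10 (3), Plagl1 and Peg3, against 10.3% of all elements at that step (7.81% of 64 member elements), and 7 were lost (10.9%, against 19.7%). From DAY3 to DAY6, 8 were gained (14.5% of 55, against 12.9%) and 2 lost (3.64%, against 3.65%). From DAY6 to DAY9, 5 were gained (7.46% of 67, against 11.0%) and 2 lost (2.99%, against 1.96%). In ESC against DAY9, 9 were gained (10.2% of 88, against 13%) and 13 lost (14.8%, against 13.2%). Of the 13, 5 lay at Snrpn, 3 at Grb10, 2 each at H19 and Igf2r and 1 at Igf2. Consecutive steps share a stage and are given side by side only. Without MEF replicate 2, 22 elements were lost from MEF to DAY3, and without MEF replicate 1, 12 were.

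The 40 member elements open in ESC were followed back. Of these, 23 and 18 had a peak in the MEF libraries, 19 and 17 (DAY3), 24 and 24 (DAY6), and 30 and 28 (DAY9), or 57.5% and 45.0%, 47.5% and 42.5%, 60.0% and 60.0%, and 75.0% and 70.0%. Over all 58799 ESC elements the shares were 41.4% and 34.7%, 39.2% and 39.2%, 55.0% and 52.1%, and 63.6% and 63.8%. Of the 30 member elements open in MEF, 19 and 21 had a peak in DAY3, 19 in each DAY6 and DAY9 library, and 18 and 17 in ESC. These are 63.3% and 70.0% (DAY3), 63.3% in each DAY6 and DAY9 library, and 60.0% and 56.7% (ESC). Over all 46089 MEF elements the shares were 48.5% and 48.4% (DAY3), 48.6% and 46.7% (DAY6), 48.2% and 48.2% (DAY9), and 45.7% and 45.5% (ESC). Shares of the members lay above those of all elements in each library outside the stage that defines the set. The members all lie in windows around genes and are wider (median 595 bp, against 509 bp for all elements). Whether place or width gives the difference was not tested. Among the 16 elements gained in ESC against MEF, the first stage with peaks in both libraries was DAY3 for 2 (Grb10 element 11 and Plagl1 element 5), DAY6 for 1, DAY9 for 3 and ESC for 10. Over all gained elements of the series the shares were 8.69%, 14.7%, 15.7% and 60.9%. Among the 12 lost, the first stage with no peak was DAY3 for 5, DAY6 for 5, DAY9 for 1 and ESC for 1. Over all lost elements of the series that stage was DAY3 for 79.4% and DAY6 for 9.37%.

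**Figure D5:**
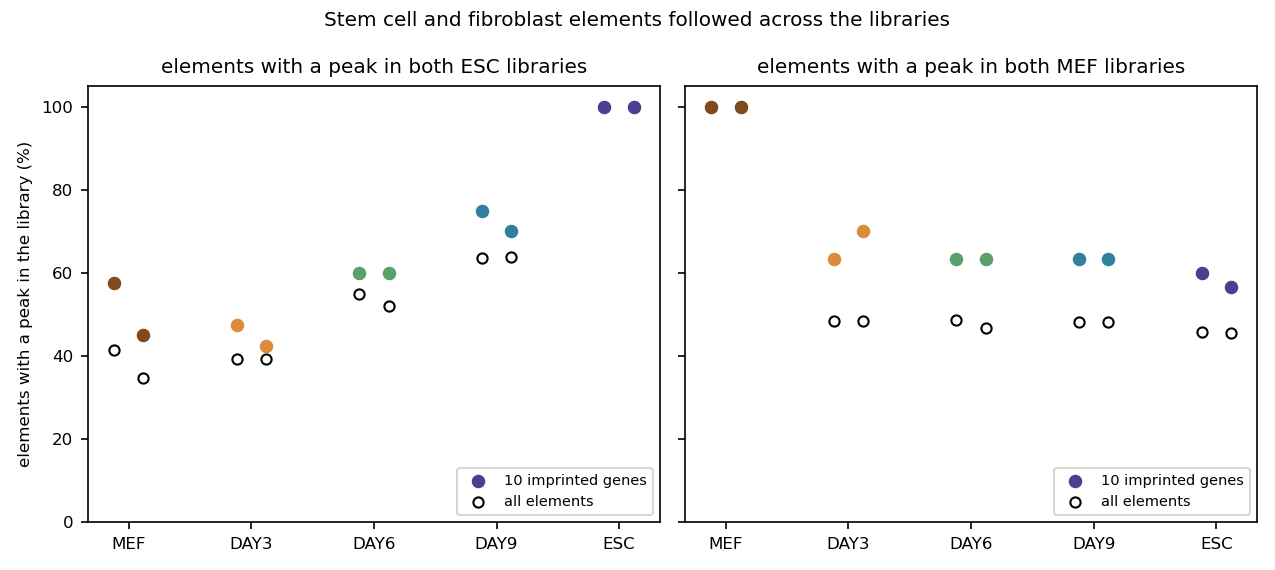
Share of elements (vertical axis, percent) with a peak in each library, for elements open in both ESC libraries (left) and in both MEF libraries (right); filled points are the 10 imprinted genes and open points all elements of the series. The ESC elements of the imprinted genes go from 57.5% and 45.0% in MEF to 75.0% and 70.0% in DAY9.

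Place and width were compared between kept and changed elements as a description. Of the 12 elements with a peak in every library, 5 lay within 1 kb of an annotated start or, where no strand was used, a gene end, as did 1 of the 16 gained and 1 of the 12 lost in ESC against MEF. Their median width was 1043 bp, against 748 bp for the gained, 769 bp for the lost and 595 bp for all 113, and a wider element can more easily meet a peak in every library. Elements with a peak in 1 library numbered 34 of 113 (30.1%, against 37.9% of all elements) and had a median width of 358 bp.

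Other imprinted genes, from a list of 43 of which 42 were in the RefSeq table, had gained and lost elements at shares somewhat under those of all elements. Outside the windows of the 10 genes they had 497 elements, and of the 405 with a peak in MEF or ESC, 62 were gained (15.3%, against 19.8% of all elements) and 49 lost (12.1%, against 13.8%). Of these, at least 1 gained element was found at 24 of the 42 genes, at least 1 lost element at 26, and both at 17. The whole windows held from 2 elements (Ndn and Klf14) to 82 (Snhg14), and neighbours such as Mcts2 and H13 can count the same element. The share of all genes with such an element is not given here, so these counts of genes are a description only. Ppp1r9a, a neighbour of Peg10, gained 10 and lost 7, Zdbf2 gained 7 and lost 1, and Airn lost 6 and gained 0, elements shared with the windows above included. Among 9 genes that keep imprints, which include the ZFP57 and TRIM28 repressors and the methylation factors Dnmt1 and Uhrf1, 25 of 96 elements were gained (26.0%, against 19.8% of all elements) and 3 lost (3.12%, against 13.8%). Zfp57 gained 6 and lost 0, and Dppa3, a protector of methylation in the early embryo, gained 5 and lost 1. By the permutation test 0 of these 51 genes passed after adjustment over all genes, where 0 of all genes did.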

How the data were processed

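The deposited data are 1 peak list per library, with no header. Per the submitters' processing notes, Bowtie2 2.3.2, MACS2 2.1.1, deepTools 2.3.6 and build mm10 were used, with no role or order given. Read depth is not given in the sources used here. The lists follow the narrowPeak layout: the authors deposited a score, a fold (a linear ratio of the summit over local background), a −log10 p that is never under 5 and a −log10 q. Numbers missing from the peak names show that peaks were removed after calling, by a rule not given in the sources used here.

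Peaks of the 10 lists that overlapped or touched were merged with Python 3.11.15, and a library had an element where any of its peaks overlapped the element by 1 bp or more. Strand came from the RefSeq promoter table for 7 of the 10 genes. For the other 3, distances are from the gene ends. The permutation test averaged the DAY3 libraries and the DAY9 libraries, and its script was tested on simulated data. Values are given for every element with a peak in all libraries, gained or lost in ESC against MEF, or open at intermediate stages alone, and for the one nearest to a start. Other elements, and the genes named from the lists, were chosen after their values were seen. Alternatives were lists of equal length, a −log10 q of at least 5, 50% overlap, 10 kb flanks, a replicate block and leaving out each library. For the permutation test, peak numbers per 10000 listed peaks and all 10 libraries counted as samples were further alternatives. Genes, lists and rules were chosen with earlier results of these data known.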

Additional observations from a re-analysis of the deposited data

How the results depend on the processing

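Of the 54 counts of elements recomputed without leaving out a library, 32 stayed within 1.5 times the reported count and 22 did not. For the latter the cause was not tested, except as stated. With lists of 45497 peaks each, 3 elements were lost from MEF to DAY3, 5 gained from DAY3 to DAY6, 1 gained and 1 lost from DAY6 to DAY9, and 10 gained in ESC against MEF. With a −log10 q of at least 5, the counts were 4 lost (MEF to DAY3), 0 lost (DAY3 to DAY6), and 3 gained and 1 lost (DAY6 to DAY9). With 50% overlap, 3 were gained and 1 lost from DAY6 to DAY9, and 5 had a peak in every library. With 10 kb flanks no count moved that far. An alternative chosen after seeing the data counted only peaks that reach into the windows. It gave 15 gained in ESC against MEF and 14 lost in ESC against DAY9, and left the other 9 counts as reported.

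In the fit with a replicate block a call needed to hold in 1 pair of same-numbered libraries, 1 against 1, so its counts are higher by construction and an element can be in both counts. It gave 13 gained and 34 lost (DAY3 against MEF), 26 and 13 (DAY6 against DAY3), 32 and 8 (DAY9 against DAY6), 31 and 30 (ESC against DAY9), and 46 and 30 (ESC against MEF). Deviations of same-numbered libraries had correlations of -0.010 to 0.022 over 10 pairs of stages, so no shared deviation was seen in this measure. It cannot show whether same-numbered libraries share a culture, animal or batch.

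Leaving out 1 library relaxes the rule. The ranges were 5 to 8 gained and 9 to 22 lost (DAY3 against MEF), 9 to 13 and 2 to 6 (DAY6 against DAY3), 10 to 12 and 2 to 3 (DAY9 against DAY6), 10 to 21 and 14 to 18 (ESC against DAY9), 17 to 31 and 12 to 24 (ESC against MEF), and 12 to 14 with a peak in every library. The permutation test called 0 genes after adjustment in each setting. Peaks absent from a list may be below its threshold, and depth is unknown.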
